A study of Mus musculus with 6 samples.

Results

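The ADAMTS proteases Adamts1, Adamts2, Adamts4, Adamts5, Adamts7, Adamts8, Adamts9, Adamts10, Adamts12 and Adamts15 were followed in RNA sequencing libraries of mouse primary cardiomyocytes, which are muscle cells taken from the heart and kept in culture. The 10 genes were chosen with earlier results of these data known. All 10 were found by symbol among the 21741 distinct gene symbols of the count tables. The tested libraries were 3 of cells given Adv-ABHD11, an adenovirus labelled as ABHD11 overexpression, and the controls were 3 of cells given the control adenovirus Adv-NC, labelled WT. Every culture carried a virus, spent 24 h in hypoxia and had the same batch number, so no virus-free or normoxic culture was compared. Whether replicates were separate cultures or animals was left unsaid by the labels, and p-values then reflect no more than the spread between these 6 libraries, which could be technical. Neither the sequence nor the species of the ABHD11 transgene was given in the sources used here, nor was the age of the animals.

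ADAMTS proteases are secreted metalloproteases that carry thrombospondin repeats, bind to the extracellular matrix and cut matrix proteins there. They are made with a propeptide that proprotein convertases such as furin remove, and their catalytic zinc ion is held by 3 histidines. The hyalectanases cut versican and aggrecan, large proteoglycans that hold hyaluronan, and versican cleavage by these enzymes is part of heart development. Other branches of the family trim procollagens, cut cartilage oligomeric matrix protein, or act on fibrillin microfibrils.

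The zinc site shows how alike these enzymes are in the part that does the cutting, and it is printed for the 4 hyalectanases Adamts1, Adamts4, Adamts5 and Adamts8 and for the related pair Adamts7 and Adamts12, which moved in opposite directions. Capitals mark the 3 histidine codons in 36 coding bases, read 5′ to 3′ from GENCODE M21 transcripts of GRCm38. An intron interrupts the site in each gene, so the coordinates span it.
Adamts1 (chr16:85799188-85799545, minus strand): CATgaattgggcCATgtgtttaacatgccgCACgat
Adamts4 (chr1:171253210-171253918, plus strand): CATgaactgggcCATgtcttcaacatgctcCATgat
Adamts5 (chr16:85878012-85887826, minus strand): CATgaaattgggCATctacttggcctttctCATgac
Adamts8 (chr9:30952721-30953381, plus strand): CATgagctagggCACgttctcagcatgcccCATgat
Adamts7 (chr9:90179456-90180643, plus strand): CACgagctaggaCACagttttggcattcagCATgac
Adamts12 (chr15:11241529-11255567, plus strand): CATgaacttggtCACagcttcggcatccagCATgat
The site was found in 10 of 10 members and in 0 of the 7 ADAMTS-like genes, whose proteins lack the protease domain. Among the members it was most alike in Adamts4 and Adamts15, with 32 of 36 bases identical. It was least alike between Adamts9 and either Adamts5 or Adamts12, with 20 of 36.

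Totals were 16292756 to 20338700 counts per library. Levels are given as CPM, counts scaled to a common TMM-adjusted library total, and 3 counts were worth 0.148 to 0.179 CPM. Abhd11 itself averaged 38.9 ± 3.25 CPM with Adv-ABHD11 and 33.5 ± 1.87 CPM with Adv-NC (SD, n = 3 each), a difference that did not pass the test (adjusted p = 0.0765). Differences between the groups were broad. By edgeR's quasi-likelihood test, 59.3% of the 12790 genes tested were called at a Benjamini-Hochberg adjusted p under 0.05, with 29.9% higher and 29.5% lower. Cardiomyocyte markers were present in all libraries and higher with Adv-ABHD11 (8 of 8), with a summed level of 31594 to 33769 CPM against 17515 to 18881 CPM with Adv-NC. The 4 lung epithelial markers (Sftpc, Sftpb, Scgb1a1 and Scgb3a2) summed to 117 to 127 CPM with Adv-ABHD11 and to 0 to 0.0513 CPM with Adv-NC, where Sftpc, Scgb1a1 and Scgb3a2 were at 0 in every library. The 4 tested red cell markers were likewise higher, and the red cell list summed to 22.8 to 25.9 CPM with Adv-ABHD11 against 0.313 to 0.647 CPM with Adv-NC, where Hba-a1 and Alas2 were at 0. The part of these cell types in the protease results was not tested.

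All 10 proteases passed the filter on low counts. Because they were chosen with earlier results of these data known, the shares over all genes are given for scale and are no test. With Adv-ABHD11, 7 were higher (Adamts1, Adamts4, Adamts5, Adamts8, Adamts10, Adamts12 and Adamts15), 2 were lower (Adamts2 and Adamts7), and Adamts9 did not pass the test. Among all genes tested, 29.9% were higher and 29.5% lower. The median log2 fold change of the 10 was 0.61, beside 0.016 over all genes tested. Calls of at least 2-fold were made for 4 of the 10, Adamts4, Adamts5, Adamts7 and Adamts8, beside 15.6% of all genes tested. Groups did not overlap for 9 of the 10, beside 63.2% of all genes tested. The 9 calls and their directions held under each of the 15 other ways of processing the counts. One of these, upper-quartile scaling, moved the median of all genes up by 0.107 on the log2 scale, and no protease changed direction with it.

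**Figure D1:**
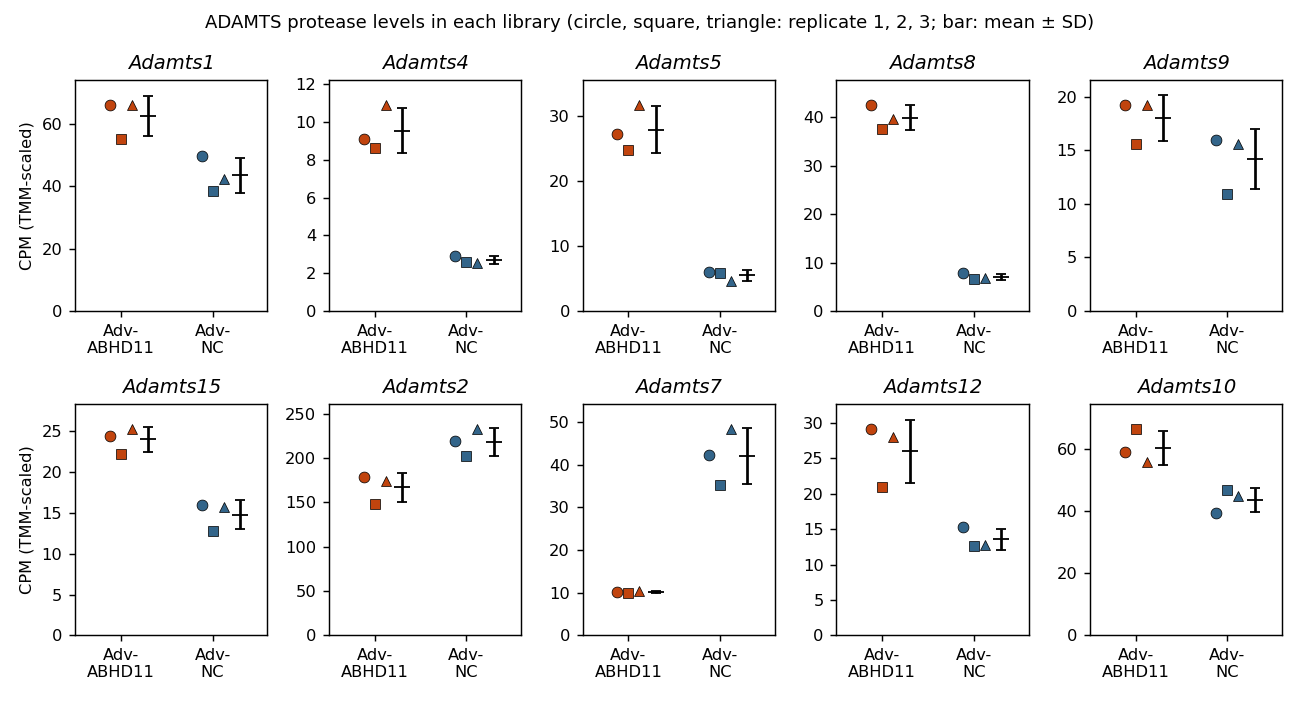
CPM of each of the 10 ADAMTS proteases in every library, with Adv-ABHD11 left of Adv-NC in each panel; symbols mark the replicate number and bars the mean ± SD of 3 libraries. The groups are separate in 9 panels and overlap only for Adamts9.

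The 3 largest increases among the 10 were those of the hyalectanases Adamts8, Adamts5 and Adamts4. Adamts8, which can cut aggrecan and block vessel growth, stood at 42.6, 37.6 and 39.5 CPM with Adv-ABHD11, against 7.82, 6.67 and 6.72 CPM with Adv-NC. Every Adv-ABHD11 library was thus far above every Adv-NC library, and the spread within either group was small beside the gap. The log2 fold change was 2.50 (SE 0.119), or 5.64-fold higher, with an adjusted p of 8.05e-12. Adamts5, a main aggrecan-cutting enzyme of mouse cartilage that also cuts versican, stood at 27.3, 24.8 and 31.8 CPM with Adv-ABHD11, against 5.99, 5.89 and 4.57 CPM with Adv-NC. The groups were again wide apart, at 5.11-fold higher (log2 fold change 2.35, SE 0.146, adjusted p = 2.36e-10). Adamts4, another aggrecan- and versican-cutting enzyme, had 9.09, 8.63 and 10.9 CPM in Adv-ABHD11 libraries and 2.91, 2.61 and 2.51 CPM in Adv-NC libraries. These levels rested on 152, 156 and 222 counts with Adv-ABHD11 and 54, 50 and 49 counts with Adv-NC. Even so the groups did not overlap, and Adamts4 was 3.57-fold higher (log2 fold change 1.83, SE 0.180, adjusted p = 1.12e-07).

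Adamts8 shares 10.6% of its exon length, 489 bases, with the antisense gene Gm29724, which was not among the deposited gene symbols. Whether counting used strand is not stated in the sources used here, so it is uncertain whether reads of Gm29724 were counted for Adamts8.

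The remaining hyalectanases moved less. Adamts1, a versican-cutting enzyme that is induced by injury and inflammation, stood at 66.3, 55.1 and 66.3 CPM with Adv-ABHD11 and at 49.7, 38.6 and 42.3 CPM with Adv-NC. The lowest Adv-ABHD11 library lay only slightly above the highest Adv-NC library. Adamts1 was 1.44-fold higher (log2 fold change 0.52, SE 0.109, adjusted p = 0.000477). Adamts15 stood at 24.5, 22.2 and 25.3 CPM with Adv-ABHD11 and at 15.9, 12.7 and 15.8 CPM with Adv-NC. It was 1.62-fold higher (log2 fold change 0.70, SE 0.122, adjusted p = 8.72e-05), with no overlap of the groups.

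Adamts9, which cuts versican and is needed for mouse heart development, had 19.3, 15.5 and 19.2 CPM in Adv-ABHD11 libraries and 15.9, 10.95 and 15.6 CPM in Adv-NC libraries. The lowest Adv-ABHD11 library lay below the highest Adv-NC library. The log2 fold change of 0.35 had a 95% interval of 0.036 to 0.66 and an adjusted p of 0.0516, just short of the threshold. The interval allows a fold of 1.03 to 1.58. Without replicate 2 of Adv-ABHD11 the value was 0.45 (adjusted p = 0.015), and without replicate 2 of Adv-NC it was 0.18 (adjusted p = 0.311). Overlapping transcripts touch it too: A730049H05Rik shares 9.18% and Gm15737 2.82% of its exon length. A730049H05Rik was not among the deposited gene symbols, and Gm15737 had at most 3 counts in any library.

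Summed over the 6 hyalectanases, the level was 189, 163.8 and 193 CPM with Adv-ABHD11, against 98.3, 77.5 and 87.5 CPM with Adv-NC. The ratio of the means was 2.07, and it was 2.70 when Adamts1, with the most counts of them, was left out. The sums describe total counts and favour long transcripts.

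**Figure D2:**
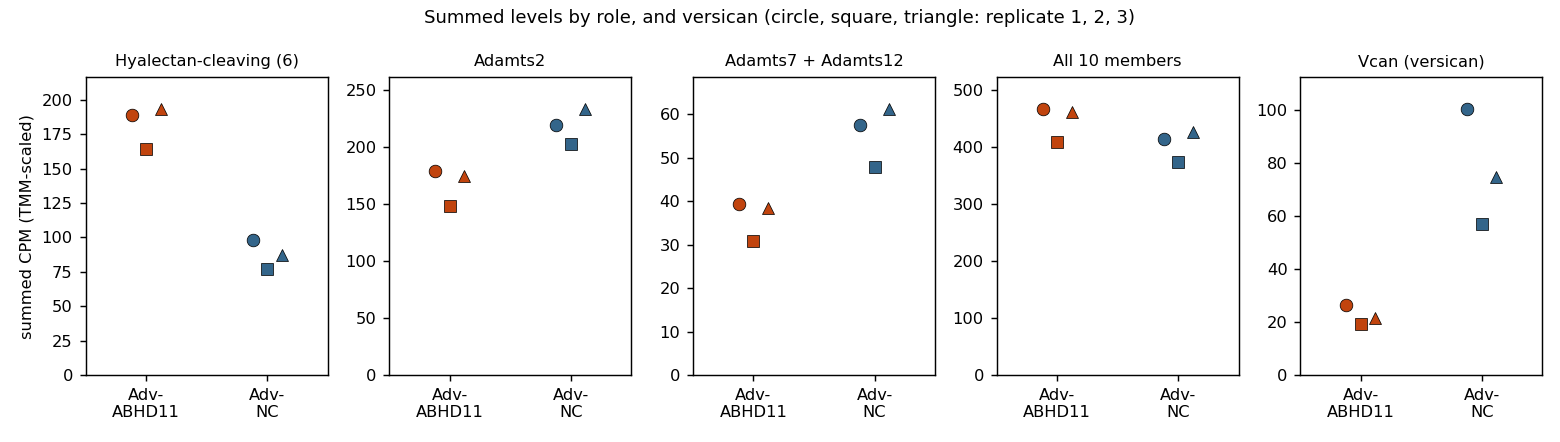
Summed CPM per library of the 6 hyalectanases, of Adamts2, of Adamts7 with Adamts12, of all 10 proteases, and of the substrate Vcan, with Adv-ABHD11 left of Adv-NC. The hyalectanase sum lies higher and Vcan lower with Adv-ABHD11, whereas the sum of all 10 overlaps between the groups.

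Adamts5 and Adamts1 lie on the same strand of chromosome 16, 53.1 kb apart, and Adamts15 and Adamts8 lie on opposite strands of chromosome 9, 20.1 kb apart. Neighbours changed by unequal amounts. Per library, Adamts5 had 0.412, 0.45 and 0.48 counts for each Adamts1 count with Adv-ABHD11, against 0.121, 0.1525 and 0.108 with Adv-NC. Adamts8 had 1.74, 1.69 and 1.56 counts for each Adamts15 count with Adv-ABHD11, against 0.492, 0.525 and 0.427 with Adv-NC. Both ratios were higher in every Adv-ABHD11 library than in any Adv-NC library. As ratios within a library, they do not depend on scaling.

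Adamts2, the main procollagen N-proteinase, removes the amino-terminal propeptide of fibrillar collagens. It stood at 179, 148 and 174 CPM with Adv-ABHD11 and at 219, 202 and 233 CPM with Adv-NC. All Adv-ABHD11 libraries lay below all Adv-NC libraries, by a modest margin. Its log2 fold change was -0.39 (SE 0.0942, adjusted p = 0.00188), or 1.31-fold lower. Adamts2 took 37.4% ± 1.10 of the counts of the 10 proteases with Adv-ABHD11 and 53.8% ± 0.907 with Adv-NC (SD, n = 3 each).

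Adamts7 and Adamts12 form a branch of their own, and both cut cartilage oligomeric matrix protein. Adamts7, studied in vascular smooth muscle and linked by human genetics to coronary artery disease, stood at 10.3, 9.90 and 10.4 CPM with Adv-ABHD11, against 42.2, 35.4 and 48.4 CPM with Adv-NC. The Adv-ABHD11 libraries were nearly equal, whereas the Adv-NC libraries were spread out and far higher. Adamts7 was 4.11-fold lower (log2 fold change -2.04, SE 0.126, adjusted p = 2.28e-10). Adamts12 went the other way, with 29.2, 20.9 and 28.0 CPM in Adv-ABHD11 libraries and 15.3, 12.6 and 12.8 CPM in Adv-NC libraries. Its groups did not overlap, and it was 1.92-fold higher (log2 fold change 0.94, SE 0.137, adjusted p = 1.32e-05). Each library held 2.84, 2.11 and 2.68 Adamts12 counts per Adamts7 count with Adv-ABHD11, against 0.363, 0.357 and 0.264 with Adv-NC. This ratio was higher in every Adv-ABHD11 library than in any Adv-NC library. Their sum averaged 36.2 ± 4.73 CPM with Adv-ABHD11 and 55.6 ± 6.83 CPM with Adv-NC. Tbc1d2b overlaps 122 exonic bases of Adamts7, 1.94% of its length.

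Adamts10, whose human mutations cause Weill-Marchesani syndrome and which binds fibrillin microfibrils, stood at 59.3, 66.6 and 55.8 CPM with Adv-ABHD11 and at 39.5, 46.9 and 44.8 CPM with Adv-NC. The groups did not overlap. Adamts10 was 1.38-fold higher (log2 fold change 0.47, SE 0.100, adjusted p = 0.000606).

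Over all 10 proteases the summed level was 466, 409 and 461 CPM with Adv-ABHD11 and 414, 374.5 and 426 CPM with Adv-NC, and the ranges overlapped. The ratio of the means was 1.10, against 1.49 without Adamts2. What differed was the makeup. Adamts8 held 8.97% ± 0.344 of the protease counts with Adv-ABHD11 and 1.75% ± 0.159 with Adv-NC. Adamts5 held 6.27% ± 0.551 with Adv-ABHD11 and 1.36% ± 0.261 with Adv-NC. Adamts7 held 2.29% ± 0.111 with Adv-ABHD11 and 10.3% ± 0.961 with Adv-NC (SD, n = 3 each). In bulk libraries like these, fewer cells of a type and less RNA per cell cannot be told apart.

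To compare levels between genes, CPM was divided by the length of each gene's merged exons. In Adv-ABHD11 cells the order was Adamts2 at 17.9 CPM per kb, Adamts1 at 11.8, Adamts8 at 8.66 and Adamts10 at 7.34 CPM per kb. Then came Adamts5 at 2.59, Adamts12 at 2.38, Adamts15 at 2.31, Adamts4 at 1.98, Adamts7 at 1.62 and Adamts9 at 1.197 CPM per kb. Ranges over the 3 libraries overlapped between Adamts5 and Adamts12, Adamts12 and Adamts15, and Adamts15 and Adamts4, and other neighbours in the order were separate. In Adv-NC cells the order was Adamts2 at 23.4 CPM per kb, Adamts1 at 8.21, Adamts7 at 6.69 and Adamts10 at 5.30 CPM per kb. It went on with Adamts8 at 1.53, Adamts15 at 1.43, Adamts12 at 1.24, Adamts9 at 0.941, Adamts4 at 0.557 and Adamts5 at 0.508 CPM per kb. There the ranges overlapped between Adamts1 and Adamts7, Adamts7 and Adamts10, Adamts8 and Adamts15, Adamts15 and Adamts12, and Adamts4 and Adamts5. Adamts5 thus had place 5 of 10 with Adv-ABHD11 and place 10 with Adv-NC, and Adamts7 had place 9 with Adv-ABHD11 and place 3 with Adv-NC. With the longest transcript in place of merged exons, Adamts5 had place 7 with Adv-ABHD11 and place 10 with Adv-NC, and Adamts7 had place 10 with Adv-ABHD11 and place 4 with Adv-NC. In both groups that change of length put Adamts10 in place 2, instead of 4, and Adamts1 in place 3, instead of 2.

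**Figure D3:**
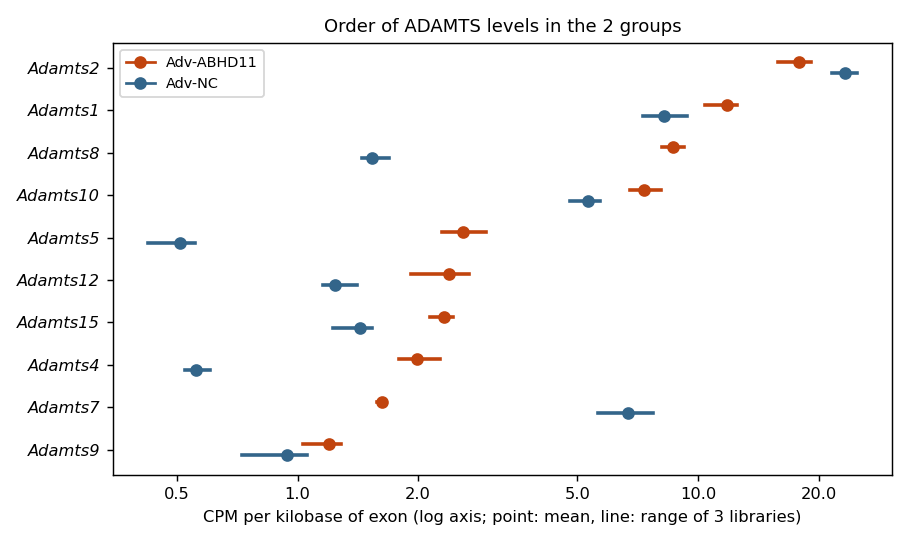
Level of each protease in CPM per kilobase of merged exon on a log axis, Adv-ABHD11 above Adv-NC in each pair; points are means and lines the range of 3 libraries. By merged exons Adamts2 and Adamts1 lead in both groups, while Adamts7, Adamts8 and Adamts5 hold different places.

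Within each group the same library was often the lowest. Replicate 2 of Adv-ABHD11 was the lowest of its group for 9 of the 10, all except Adamts10, beside 35% of all genes. Replicate 2 of Adv-NC was the lowest of its group for 7 of the 10, beside 32.7% of all genes.

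The genes whose levels ran most like the 3 proteases of highest mean CPM were sought over the 6 libraries among 9996 genes, with Pearson's r of log2 CPM as the measure. For Adamts2 these were Arsb (r = 0.998), Qpctl (0.998) and Snrnp200 (0.997). For Adamts1 they included Atp11b (r = 0.999) and the fibrillin gene Fbn2 (0.998). For Adamts10 they were Bsg (r = 0.999), Ube2q1 (0.998) and Pex19 (0.997). With 6 libraries in 2 groups such values are common: 371, 397 and 481 genes exceeded 0.95 for Adamts2, Adamts1 and Adamts10.

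Of the 9 other ADAMTS proteases, 4 had enough counts to test, and 2 were higher with Adv-ABHD11 (29.9% of all genes tested were) and none lower. Adamts3, a procollagen N-proteinase that also takes part in activating the lymphatic growth factor VEGF-C, averaged 2.35 ± 0.324 CPM with Adv-ABHD11 and 1.43 ± 0.0667 CPM with Adv-NC (log2 fold change 0.71, adjusted p = 0.0291). Adamts17, whose human mutations cause a syndrome like that of Adamts10, averaged 1.35 ± 0.0800 CPM with Adv-ABHD11 and 0.631 ± 0.316 CPM with Adv-NC (log2 fold change 1.09, adjusted p = 0.0227). Both calls depended on single libraries. That of Adamts3 was lost without replicate 1 or 3 of Adv-ABHD11 (adjusted p = 0.104 and 0.0668) or replicate 2 or 3 of Adv-NC (0.077 and 0.0757), and with DESeq2 (0.0648). That of Adamts17 was lost without replicate 1 or 3 of Adv-ABHD11 (adjusted p = 0.0612 and 0.0535) or replicate 3 of Adv-NC (0.122).

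Adamts14, the remaining procollagen N-proteinase, averaged 8.56 ± 1.96 CPM with Adv-ABHD11 and 9.54 ± 1.50 CPM with Adv-NC and did not pass the test (adjusted p = 0.443), nor did Adamts6 (log2 fold change 0.17, adjusted p = 0.683). The direction of Adamts6 turned without replicate 2 of Adv-NC. The other 5 were at the edge of detection and were not tested. Adamts16 had 2, 3 and 9 counts with Adv-ABHD11 and 0, 1 and 0 counts with Adv-NC. Adamts19 had 18, 5 and 10 counts with Adv-ABHD11 and 5, 6 and 4 counts with Adv-NC. Adamts20 and Adamts13 had at most 6 counts in any library. Adamts18 had none, which allows up to 3 counts or 0.148 to 0.179 CPM per library, covering counting error only.

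ADAMTS-like proteins share the repeats but not the protease domain, and some of them sit in microfibrils. Of 7 genes 6 were tested, of which 2 were higher, 1 was lower and 3 did not pass. Among all genes tested, 29.9% were higher and 29.5% lower. Adamtsl2, mutated in human geleophysic dysplasia, stood at 198, 177 and 186 CPM with Adv-ABHD11, against 51.1, 52.4 and 48.9 CPM with Adv-NC. The groups were far apart, and Adamtsl2 was 3.68-fold higher (log2 fold change 1.88, SE 0.0886, adjusted p = 6.97e-12). Adamtsl3 was also higher (log2 fold change 0.39, adjusted p = 0.0243). It no longer passed when replicate 1 or 3 of Adv-ABHD11 (adjusted p = 0.0951 and 0.106) or replicate 3 of Adv-NC (0.0962) was left out. Adamtsl5 was 1.68-fold lower, with 33.5 ± 1.59 CPM in Adv-ABHD11 cells and 56.2 ± 5.20 CPM in Adv-NC cells (adjusted p = 4.26e-06). Adamtsl4 had a log2 fold change of 0.23 (adjusted p = 0.164), Thsd4 of 0.38 (0.126) and Adamtsl1 of -0.08 (0.83), and Adamtsl1 changed direction in some alternatives. Adamtsl4 passed without replicate 1 of Adv-NC (adjusted p = 0.0151) or replicate 2 of Adv-ABHD11 (0.0249). It also passed with the replicate number as a block (0.0353) and with the GC and length trend removed (0.0186). Papln had 0, 3 and 3 counts with Adv-ABHD11 and 7, 6 and 11 counts with Adv-NC and was not tested.

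**Figure D4:**
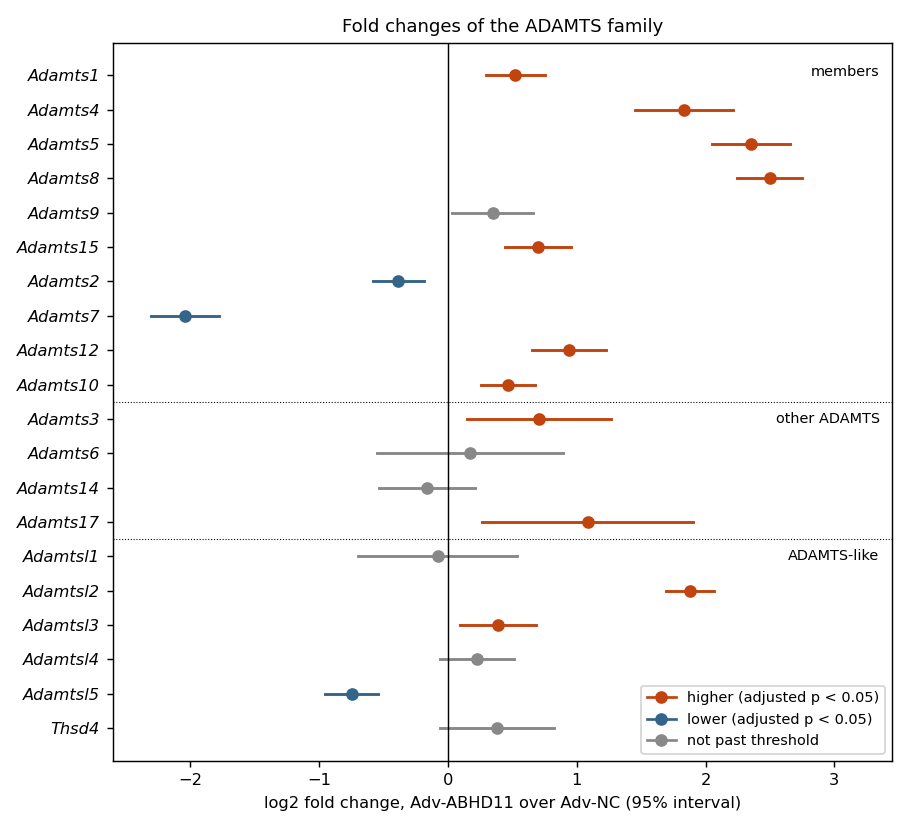
Log2 fold change of Adv-ABHD11 over Adv-NC with its 95% interval for the 10 proteases, the 4 other tested ADAMTS genes and the 6 tested ADAMTS-like genes, coloured by call. Adamts8, Adamts5, Adamtsl2 and Adamts4 lie farthest to the right and Adamts7 farthest to the left.

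The main substrate of the hyalectanases moved against them. Vcan, which encodes versican, stood at 26.6, 19.4 and 21.8 CPM with Adv-ABHD11 and at 100.5, 57.0 and 75.0 CPM with Adv-NC, with no overlap. It was 3.43-fold lower (log2 fold change -1.78, SE 0.162, adjusted p = 4.19e-08). Per library there were 7.10, 8.44 and 8.86 hyalectanase counts for each Vcan count with Adv-ABHD11, against 0.977, 1.36 and 1.17 with Adv-NC. Of the 8 hyalectan and link protein genes 3 were tested, and Vcan was the only one called. Acan, which encodes aggrecan, averaged 14.9 ± 2.86 CPM with Adv-ABHD11 and 16.7 ± 3.26 CPM with Adv-NC (adjusted p = 0.372). Protein cleavage was not measured.

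Other substrates also leaned lower, with 6 of the 7 tested lower and none higher (median log2 fold change -0.52), where 29.5% of all genes tested were lower. With upper-quartile scaling 4 were lower and 1 was higher, and 1 was also higher without replicate 2 of Adv-ABHD11 and with the GC and length trend removed. Leaving out 1 library at a time gave 4 to 6 lower. Thbs1, the anti-angiogenic matrix protein thrombospondin 1 that Adamts1 can cut, averaged 345 ± 36.3 CPM with Adv-ABHD11 and 2307 ± 237 CPM with Adv-NC. This was 6.68-fold lower (log2 fold change -2.74, adjusted p = 1.35e-12). Its relative Thbs2 averaged 84.6 ± 8.67 CPM with Adv-ABHD11 and 229 ± 24.9 CPM with Adv-NC (log2 fold change -1.43, adjusted p = 1.75e-09). The heparan sulfate proteoglycan gene Sdc4 (log2 fold change -0.97, adjusted p = 9.32e-08) and the basement membrane gene Nid1 (-0.52, adjusted p = 0.00102) were lower as well.

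Genes that work beside Adamts2 on fibrillar collagens were lower or did not pass. Of 9 tested procollagen and processing genes, 5 were lower, none was higher and 4 did not pass (median log2 fold change -0.51). Beside this, 59.3% of all genes tested were called and 29.5% were lower. Bmp1, the C-proteinase that trims the other end of procollagen, averaged 172 ± 11.8 CPM with Adv-ABHD11 and 295 ± 10.1 CPM with Adv-NC (log2 fold change -0.78, adjusted p = 5.56e-07). Its enhancers Pcolce2 (log2 fold change -1.68, adjusted p = 7.08e-08) and Pcolce (-0.51, adjusted p = 0.000126) and the collagen V gene Col5a1 (-0.75, adjusted p = 7.66e-05) were lower. The rest of the list is named here after its values were seen. Col1a1 was lower (log2 fold change -0.44, adjusted p = 0.00939), though its groups overlapped. Col1a2 (-0.19, adjusted p = 0.198), Col3a1 (-0.25, 0.0758), Col5a2 (-0.03, 0.838) and Tll1 (-0.62, 0.178) did not pass.

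Fibrillin microfibril genes, the setting of Adamts10 and Adamtsl2, split. Of 9 tested, 2 were higher, 4 were lower and 3 did not pass (median log2 fold change -0.19), beside 29.9% higher and 29.5% lower over all genes tested. The lower ones were Mfap5 (log2 fold change -1.90, adjusted p = 2.31e-08) and the latent TGF-beta binding genes Ltbp1 (-1.21, adjusted p = 1.02e-07), Ltbp2 (-0.79, adjusted p = 4.37e-06) and Ltbp3 (-0.66, adjusted p = 3.6e-05). The higher ones, named here after their values were seen, were the fibrillin gene Fbn2 (log2 fold change 0.66, adjusted p = 0.000578) and Eln, which encodes elastin (0.45, adjusted p = 0.000872).

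Inhibitors and clearance genes were called in 5 of 5 tested cases, with 4 lower and 1 higher (median log2 fold change -1.04). Over all genes tested, 59.3% were called and 29.5% were lower. Timp4, named here after its counts were seen, had 2, 4 and 4 counts with Adv-ABHD11 and was not tested. It had 0 counts in every Adv-NC library. Without the filter on low counts, 2 genes of this list were higher. The tissue inhibitors of metalloproteinases Timp1 and Timp2 were lower. Timp1 averaged 265 ± 23.2 CPM with Adv-ABHD11 and 817 ± 63.7 CPM with Adv-NC (log2 fold change -1.62, adjusted p = 1.7e-10). Timp2 averaged 321 ± 3.87 CPM with Adv-ABHD11 and 660 ± 48.5 CPM with Adv-NC (log2 fold change -1.04, adjusted p = 1.9e-08). Timp3, the strongest TIMP inhibitor of Adamts4 and Adamts5 and named here after its values were seen, averaged 184 ± 16.0 CPM with Adv-ABHD11 and 289 ± 18.4 CPM with Adv-NC (log2 fold change -0.65, adjusted p = 8.9e-06). Lrp1, the endocytic receptor that takes up Adamts4 and Adamts5, averaged 276 ± 45.5 CPM with Adv-ABHD11 and 598 ± 109 CPM with Adv-NC (log2 fold change -1.12, adjusted p = 1.02e-06). A2m, a broad trap for proteases, was the exception among the tested genes. It averaged 9.54 ± 0.514 CPM with Adv-ABHD11 and 0.924 ± 0.193 CPM with Adv-NC, 10.2-fold higher (adjusted p = 3.74e-10).

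Of 6 genes for propeptide removal and O-fucosylation, which the repeats of these proteins need for secretion, 1 was higher, 2 were lower and 3 did not pass. Shares over all genes tested were 29.9% higher and 29.5% lower. Furin averaged 135 ± 15.0 CPM with Adv-ABHD11 and 229 ± 21.8 CPM with Adv-NC (log2 fold change -0.77, adjusted p = 3.49e-06). B3glct, which adds glucose to the O-fucose, was lower (log2 fold change -0.77, adjusted p = 5.23e-05). The convertase gene Pcsk6 was higher (log2 fold change 0.52, adjusted p = 0.000329).

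**Figure D5:**
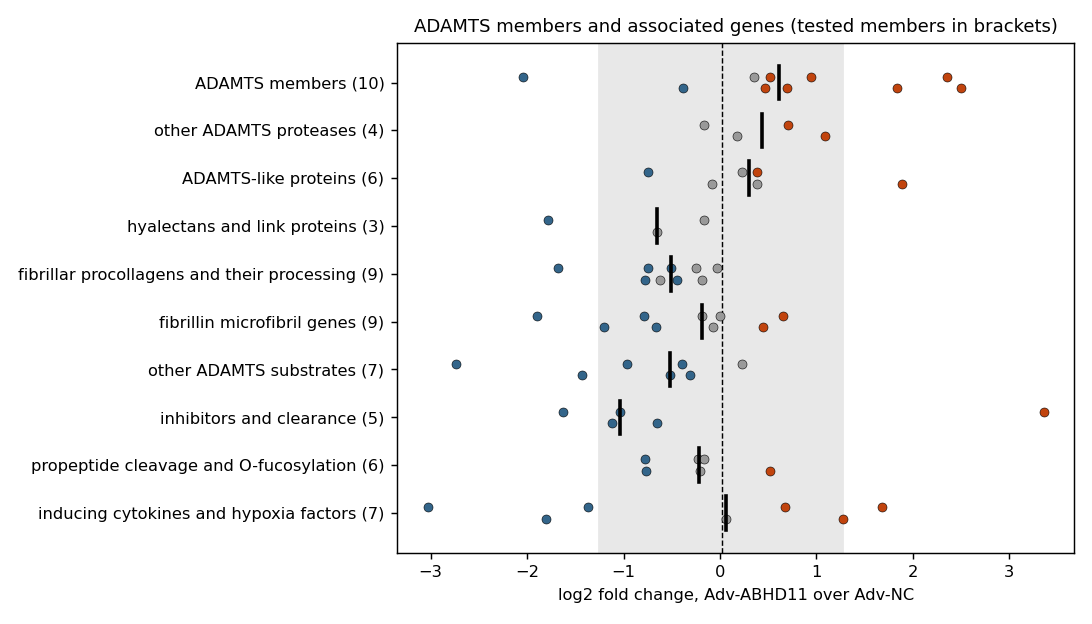
Log2 fold changes, Adv-ABHD11 over Adv-NC, of the tested genes in each list (red higher, blue lower, grey not called), with a black bar at each list's median, a dashed line at the median of all genes and a grey band from the 5th to the 95th percentile of all genes (-1.26 to 1.28). The substrate, procollagen and inhibitor lists have medians below that of all genes.

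Markers of other heart cells moved too, where 29.9% of all genes tested were higher and 29.5% lower. With Adv-ABHD11, 5 of 6 endothelial markers were higher and none was lower, and their summed level was 491 to 536 CPM against 338 to 370 CPM with Adv-NC. Of 6 smooth muscle and pericyte markers 4 were higher and none was lower, with a sum of 4286 to 4786 CPM with Adv-ABHD11 against 3008 to 3518 CPM with Adv-NC. Of 6 epicardial markers 5 were lower and 1 was higher, summing to 99.7 to 107 CPM with Adv-ABHD11 and 162 to 173 CPM with Adv-NC. Fibroblast markers split, with 2 higher and 3 lower of 6, and sums of 703 to 784 CPM with Adv-ABHD11 and 707 to 835 CPM with Adv-NC. Leukocyte markers split 2 and 2 of 6, at 62.8 to 67.6 CPM with Adv-ABHD11 and 63.6 to 81.7 CPM with Adv-NC. Nerve markers were near the floor, at 1.77 to 2.33 CPM with Adv-ABHD11 and 1.62 to 1.94 CPM with Adv-NC. Of these 4 markers 2 were tested, and they split. Sox10 was higher (log2 fold change 0.97, adjusted p = 0.0319) and S100b lower (-2.14, adjusted p = 0.00225). The Sox10 call was lost with DESeq2 and when some single libraries were left out. The part of these cell types in the protease changes was not tested.

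Promoters were at hand for 4 of the 10 proteases (Adamts1, Adamts2, Adamts9 and Adamts12), and those of the protease that rose and the one that fell with the highest mean CPM are shown. The bases lie directly before the start of the gene, from RefSeq on GRCm38.p6, and capitals mark a TATA box.
Adamts1 (chr16:85803114-85803363, minus strand): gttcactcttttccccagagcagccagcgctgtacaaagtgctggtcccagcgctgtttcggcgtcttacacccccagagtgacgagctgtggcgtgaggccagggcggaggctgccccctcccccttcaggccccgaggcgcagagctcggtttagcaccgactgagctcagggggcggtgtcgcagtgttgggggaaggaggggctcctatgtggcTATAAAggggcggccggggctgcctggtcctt
Adamts2 (chr11:50601835-50602083, plus strand): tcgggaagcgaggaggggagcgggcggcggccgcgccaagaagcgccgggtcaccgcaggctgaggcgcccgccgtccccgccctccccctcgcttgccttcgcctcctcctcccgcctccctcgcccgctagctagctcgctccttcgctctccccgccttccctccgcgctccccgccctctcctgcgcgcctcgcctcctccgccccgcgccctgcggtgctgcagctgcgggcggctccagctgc
The Adamts1 window held 1 TATA box (TATAAA), a motif found on either strand in 12.4% of the 32851 promoter windows of the table, and the Adamts2 window held none. Neither held the AP-1 motif TGANTCA (6.75% of windows), the HIF core ACGTG (16.6%) or the cAMP response element TGACGTCA (1.55%), and the same was true of the Adamts9 and Adamts12 windows, which also lacked the TATA box. G and C made up 65.6% of the Adamts1 window and 77.9% of the Adamts2 window, beside a median of 52.4% over all windows.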

How the data were processed

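RNA was extracted with TRIzol, per the labels' protocols, and sequenced as 6 libraries. The authors deposited, for each library, an RSEM expected count per gene symbol, not scaled to depth. The submitters' processing notes name Trimmomatic 0.39, HISAT2, RSEM, DESeq2 and mm10, but not their roles. Neither strand use nor the annotation release is given there, so a gene and a partner overlapping it on the other strand cannot be separated. RSEM shares ambiguous reads between genes by estimate.

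Each table held 21763 lines. The 22 repeated symbols, 0.00899% of counts, were reduced to the line with the most counts. Expected counts were rounded (8.96% to 10.2% of genes above 0 were fractional), kept by filterByExpr (minimum count 10, minimum total 15), TMM-scaled and tested with edgeR 4.0.16 in R 4.3.3 by the quasi-likelihood F test. The Benjamini-Hochberg adjustment over 12790 genes was read at 0.05. The standard error is the log2 fold change over the square root of F, and intervals are 95%. CPM uses TMM-scaled totals. Exon lengths and coordinates came from GENCODE M21 (GRCm38, also named mm10), which held 21073 of the symbols. The code was run on counts simulated from the fit's own dispersions, with far fewer changed genes than were called here. That run checks the code and not how well the model suits these data.

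Alternatives were DESeq2 1.42.0, limma 3.58.1 voom, other scalings, no filter, no rounding, a replicate block and leaving out each library. Removal of a GC and length trend was chosen after seeing the data. The proteases and gene lists were chosen with earlier results of these data known. Named are all ADAMTS and ADAMTS-like genes, up to 4 called genes per other list by smallest adjusted p, markers that set a limit, and the 3 genes most like each of the 3 most abundant proteases (mean CPM above 5, no provisional symbols). Some results that these rules select are not reported here.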

Additional observations from a re-analysis of the deposited data

How the results depend on the processing

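The 7 higher and 2 lower proteases kept call and direction under all 15 alternatives, with 8 higher in 6 of them, where Adamts9 passed. The Adamts9 log2 fold change was 0.46 with upper-quartile scaling (adjusted p = 0.0158), 0.35 without the filter (0.0405), 0.36 with limma voom (0.0447), 0.45 without replicate 2 of Adv-ABHD11 (0.015) and 0.45 without replicate 1 of Adv-NC (0.0208). Calls over all genes ran from 6587 to 7985. Leaving out 1 library at a time gave 7 to 8 proteases higher and 2 lower. Among the genes named, direction reversed for Adamts6 and Adamtsl1, neither of which passed the test. The log2 fold change of Adamts6 was -0.0013 with the GC and length trend removed and ran from -0.0802 to 0.38 when 1 library was left out. That of Adamtsl1 was 0.0269 with upper-quartile scaling and ran from -0.31 to 0.1286. Without replicate 1 or 3 of Adv-ABHD11, or replicate 3 of Adv-NC, 0 of the other ADAMTS genes and 1 ADAMTS-like gene were higher, and 1 fibroblast marker was lower without replicate 2 of Adv-ABHD11 or replicate 1 of Adv-NC, and likewise when scaling used the upper quartile or the library size alone. The cause was not tested. Whether replicate numbers pair the libraries could not be decided from so few libraries. Deviations of same-numbered libraries correlated at 0.01, 0.20 and -0.10, and those of differently numbered ones at -0.16 to 0.18. With the replicate number as a block, 7838 genes were called beside 7589 without it, the 10 proteases had 8 higher and 2 lower, 1 other substrate was higher, and Adamts9 passed (0.36, adjusted p = 0.0157). Depth limits Adamts13, Adamts16, Adamts18, Adamts19 and Adamts20, which were not testable.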

Other observations

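Factors known to induce ADAMTS genes in other cells did not move as one. Of 7 tested cytokine and hypoxia factor genes, 3 were higher with Adv-ABHD11, 3 were lower and 1 did not pass (median log2 fold change 0.06). Shares over all genes tested were 29.9% higher and 29.5% lower. Tgfb3, a TGF-beta ligand, averaged 178 ± 4.33 CPM with Adv-ABHD11 and 55.3 ± 5.50 CPM with Adv-NC (log2 fold change 1.68, adjusted p = 5.42e-11). Epas1, which encodes the hypoxia factor HIF-2 alpha, averaged 30.5 ± 4.04 CPM with Adv-ABHD11 and 12.6 ± 1.99 CPM with Adv-NC (log2 fold change 1.27, adjusted p = 2.66e-07). Tgfb1 (log2 fold change -1.37, adjusted p = 6.6e-09) and the cytokine gene Il6 (-1.81, adjusted p = 7.98e-08) were lower. Tnf, Tgfb2 and Il1b are named here after their values were seen. Tnf was lower (log2 fold change -3.03, adjusted p = 6.16e-06), with 4, 3 and 4 counts with Adv-ABHD11 and 30, 32 and 34 with Adv-NC. Tgfb2 was higher (0.67, adjusted p = 6.52e-05). Il1b had 2, 6 and 3 counts with Adv-ABHD11 and 0 in every Adv-NC library, and was not tested. Without the filter on low counts, 4 genes of this list were higher.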
